A study of Mus musculus with 10 samples.

Results

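The genes described are 9 of the Notch pathway and of supporting cell fate in the main olfactory epithelium (MOE), which lines the upper nasal cavity and holds the olfactory neurons. They are the receptors Notch1, Notch2 and Notch3, the ligands Jag1 and Dll1, the target genes Hes1, Hes5 and Hey1, and Sox2, and they were chosen by name for their role. Each had 1 probe set, and all 9 were among the 23194 probe sets tested. Whole MOE of 5-week old mice was profiled on Affymetrix Mouse Gene 1.0 ST arrays, 4 from H2be-GF and 6 from wild-type (WT) mice, to ask what ectopic over-expression of the histone variant H2BE does to gene expression in this tissue. H2be-GF mice carry a FLAG-H2BE transgene driven by the promoter of olfactory marker protein (Omp), which is active in mature olfactory neurons. The line stems from 1 founder, on a background crossed to C57Bl/6, and a band of neurons near zone 2 does not make the transgenic protein, so that its mature neurons are a mosaic. WT mice lacked the transgene, and neither group received a treatment that the labels mention. The RNA on an array was a pool of animals, and the H2be-GF pools were larger than the WT pools. The series text gives males and females in equal parts, without a sex for any single array.

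In Notch signalling a ligand on one cell binds a receptor on its neighbour, the receptor is cleaved, and its freed intracellular part joins the DNA-binding protein RBPJ and switches on genes of the HES and HEY families, most of which code for repressors. In the MOE, progenitors that keep HES1 active and proneural factors low give rise to sustentacular cells, the glia-like supporting cells of the epithelium, instead of neurons. SOX2 marks both basal progenitors and sustentacular cells. In whole tissue, fewer cells of a type and less RNA per cell cannot be told apart.

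Array medians lay between 7.74 and 7.91 on the log2 scale, and correlations between arrays ran from 0.969 to 0.988. Xist separated the arrays into a high set, at 11.69 or above, and a low set, at 4.61 or below, each with 2 H2be-GF and 3 WT arrays. The probe set of H2bc21, the native gene of H2BE (also called Hist2h2be), was at 11.84 ± 0.07 (SD, n = 4) on H2be-GF and 12.07 ± 0.05 (SD, n = 6) on WT arrays. The positions of its probes are not known here. By quantitative PCR the paper found the transgene in this line expressed well above the endogenous gene. This probe set showed no such rise. Its difference, H2be-GF minus WT on the log2 scale, was -0.23. The genotypes did not overlap, with the highest H2be-GF array at 11.92 and the lowest WT array at 12.00. Of all probe sets 2.89% did not overlap. The values of H2bc21 are thus not a measure of the over-expression, and the cause of the lower signal was not tested. Omp was at 12.78 ± 0.03 (SD, n = 4) and 12.88 ± 0.04 (SD, n = 6), and the lowest value of the 8 sustentacular cell markers measured was 10.05 on any array.

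No gene of the 9 passed the test between the genotypes. With limma and Benjamini-Hochberg adjustment over all probe sets, 0 of 9 had an adjusted p under 0.05, against 20 of all 23194 probe sets (0.0862%), and their adjusted p-values ran from 0.465 to 0.982. At an unadjusted p under 0.05 stood 2 of the 9, Jag1 on the higher side in H2be-GF and Hes1 on the lower, where the background was 4.35% of all probe sets higher and 4.07% lower, 8.43% in all. The H2be-GF and WT arrays overlapped for every one of the 9 genes, while they did not for 2.89% of all probe sets. The median difference, H2be-GF minus WT on the log2 scale, was 0.03 over the 9 genes and 0.01 over all probe sets tested. The other 7 genes lay between -0.06 and 0.07, in a tissue-wide spread where the median size of a difference was 0.08 and the median SE 0.09.

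**Figure D1:**
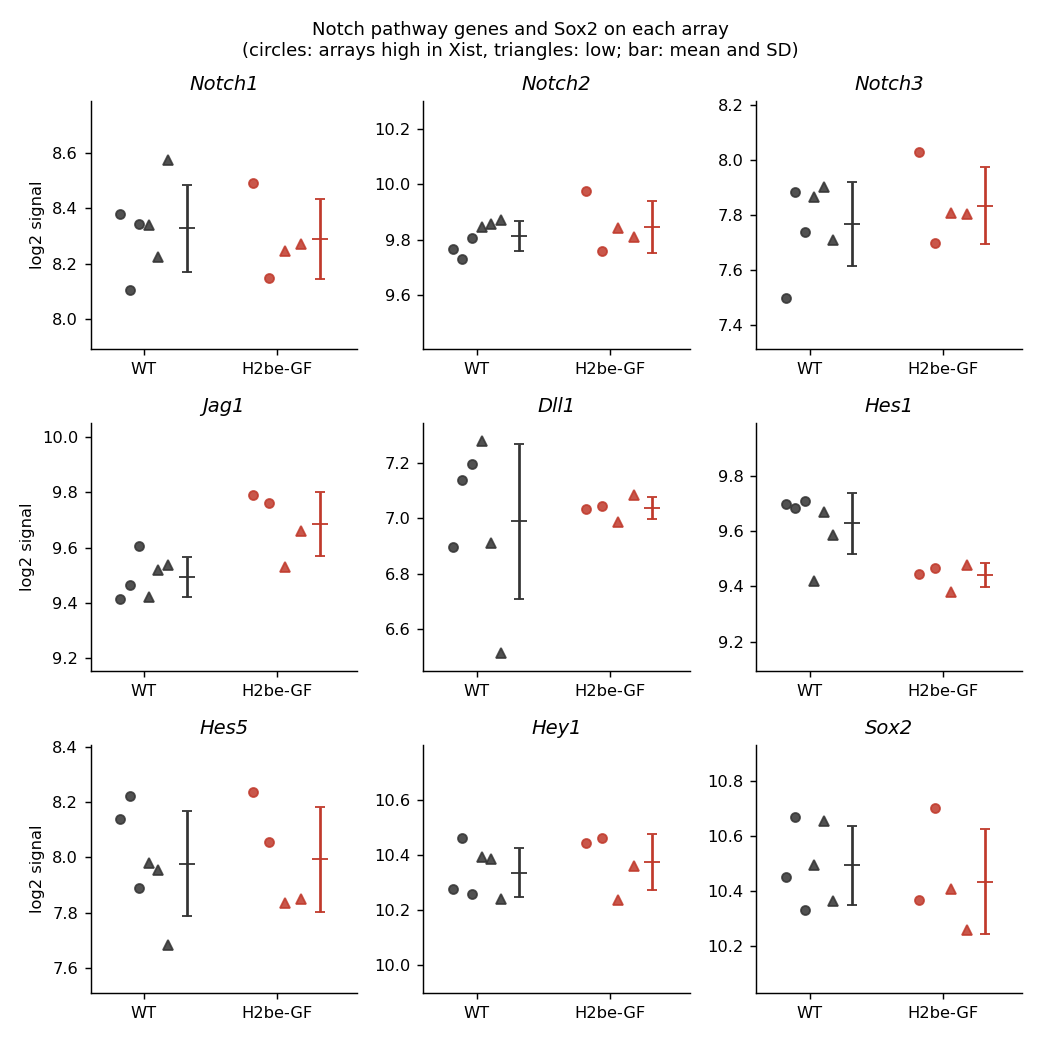
Log2 signal of the 9 genes on each array, 1 panel per gene, with WT arrays in grey and H2be-GF arrays in red. Circles are arrays high in Xist and triangles arrays low in Xist, bars give the mean and SD of a genotype, and every panel spans 0.90 log2 units. For Jag1 3 of 4 H2be-GF arrays lie above all WT arrays, for Hes1 5 of 6 WT arrays lie above all H2be-GF arrays, and the other panels overlap more widely.

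Of the ligands, Jag1 (probe set 10488060, chromosome 2) codes for Jagged1, a transmembrane ligand that acts in lateral induction and in blood vessel walls. Its log2 signal on the 4 H2be-GF arrays was 9.79, 9.76, 9.53 and 9.66, and on the 6 WT arrays it ran from 9.41 through a median of 9.49 to 9.60. H2be-GF 1, 2 and 4 were above all WT arrays, H2be-GF 3 lay within their range, and 4 of 6 WT arrays were below all H2be-GF arrays. The means were 9.69 ± 0.12 (SD, n = 4) and 9.49 ± 0.07 (SD, n = 6), 1.14-fold higher in H2be-GF. On the log2 scale the difference was 0.19 (SE 0.07, 95% interval 0.04 to 0.34), with a limma p of 0.0182 unadjusted and 0.465 adjusted. By this p Jag1 stood at rank 906 of 23194. An exact two-sided permutation test, with 210 ways to divide the arrays, gave p = 0.0190, where 0.00476 is the smallest it can give. Without H2be-GF 1 the difference was 0.16 with a limma p of 0.0645 unadjusted and 0.737 adjusted, and without H2be-GF 2 it was 0.17 with a limma p of 0.0528 unadjusted and 0.660 adjusted.

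Dll1 (probe set 10448034, chromosome 17), the Delta-like ligand that differentiating neuronal precursors present to their neighbours, was at 7.03, 7.04, 6.99 and 7.09 on the H2be-GF arrays. On WT arrays it ran from 6.51 through a median of 7.02 to 7.28. All H2be-GF arrays lay inside the WT range, with an SD of 0.04 against 0.28. The difference was 0.05 (SE 0.13, 95% interval -0.24 to 0.33, limma adjusted p = 0.948), the widest interval of the 9, and it had the opposite sign, -0.05, without WT 6.

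The differences of the 3 receptors lay between -0.04 and 0.07. Notch1 (probe set 10481056, chromosome 2), the receptor of many epithelial progenitors, was at 8.49, 8.15, 8.25 and 8.27 on the H2be-GF arrays and ran from 8.11 through a median of 8.34 to 8.58 on WT arrays. The H2be-GF arrays all lay within the WT range, with a difference of -0.04 (SE 0.10, 95% interval -0.25 to 0.17, limma adjusted p = 0.943). Without H2be-GF 2 or without WT 6 the sign turned, at 0.01 in both.

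Notch2 (probe set 10494595, chromosome 3), a receptor that in the MOE is described in sustentacular cells, was at 9.98, 9.76, 9.84 and 9.81 on the H2be-GF arrays and from 9.73 through a median of 9.83 to 9.87 on WT arrays. H2be-GF 1 was above every WT array and the other H2be-GF arrays lay among them. The difference was 0.03 (SE 0.06, 95% interval -0.10 to 0.17, limma adjusted p = 0.920), and -0.01 without H2be-GF 1.

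Notch3 (probe set 10449775, chromosome 17), the receptor best known from the mural cells of vessels, was at 8.03, 7.70, 7.81 and 7.80 on the H2be-GF arrays and from 7.50 through a median of 7.80 to 7.90 on WT arrays. H2be-GF 1 was again the highest of all arrays, WT 1 was the lowest, and the rest were mixed. The difference was 0.07 (SE 0.09, 95% interval -0.14 to 0.27, limma adjusted p = 0.893). The 7 mural cell markers measured ran from -0.22 to 0.10, 5 higher and 2 lower with a median of 0.03, and 0 had an unadjusted p under 0.05.

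Of the target genes, Hes1 (probe set 10434925, chromosome 16) codes for the repressor that holds back proneural genes in progenitors and is kept on in sustentacular cells. Its log2 signal was 9.45, 9.47, 9.38 and 9.48 on the H2be-GF arrays, and on WT arrays it ran from 9.42 through a median of 9.68 to 9.71. The H2be-GF arrays lay close together, below 5 of 6 WT arrays, and WT 4 alone fell among them. The means were 9.44 ± 0.04 (SD, n = 4) and 9.63 ± 0.11 (SD, n = 6), a ratio of 0.879. The log2 difference was -0.19 (SE 0.07, 95% interval -0.34 to -0.03), with a limma p of 0.0210 unadjusted and 0.482 adjusted, and p = 0.0333 in the exact permutation test. Without WT 4 the difference was -0.23 with a limma p of 0.00315 unadjusted and 0.397 adjusted. Without H2be-GF 3, the lowest array, it was -0.16 with a limma p of 0.0620 unadjusted and 0.700 adjusted.

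Hes5 (probe set 10510950, chromosome 4), a target that in many neural tissues follows Notch activity closely, was at 8.24, 8.06, 7.83 and 7.85 on the H2be-GF arrays and from 7.68 through a median of 7.97 to 8.22 on WT arrays. Both genotypes spanned nearly the same range, and the difference was 0.02 (SE 0.11, 95% interval -0.23 to 0.26, limma adjusted p = 0.982). Its sign turned without any of 4 arrays, in a range of -0.07 to 0.07 over all arrays left out in turn.

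Hey1 (probe set 10497203, chromosome 3), a hairy-related repressor induced by Notch in vessels and other tissues, was at 10.44, 10.46, 10.24 and 10.36 on the H2be-GF arrays and from 10.24 through a median of 10.33 to 10.46 on WT arrays. The ranges were all but identical, and the difference was 0.04 (SE 0.07, 95% interval -0.12 to 0.19, limma adjusted p = 0.919). Sox2 (probe set 10491477, chromosome 3), the SoxB1 transcription factor of basal progenitors and supporting cells, was at 10.37, 10.70, 10.41 and 10.26 on the H2be-GF arrays and from 10.33 through a median of 10.47 to 10.67 on WT arrays. H2be-GF arrays were both the highest and the lowest of all 10, and the difference was -0.06 (SE 0.10, 95% interval -0.28 to 0.16, limma adjusted p = 0.911).

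**Figure D2:**
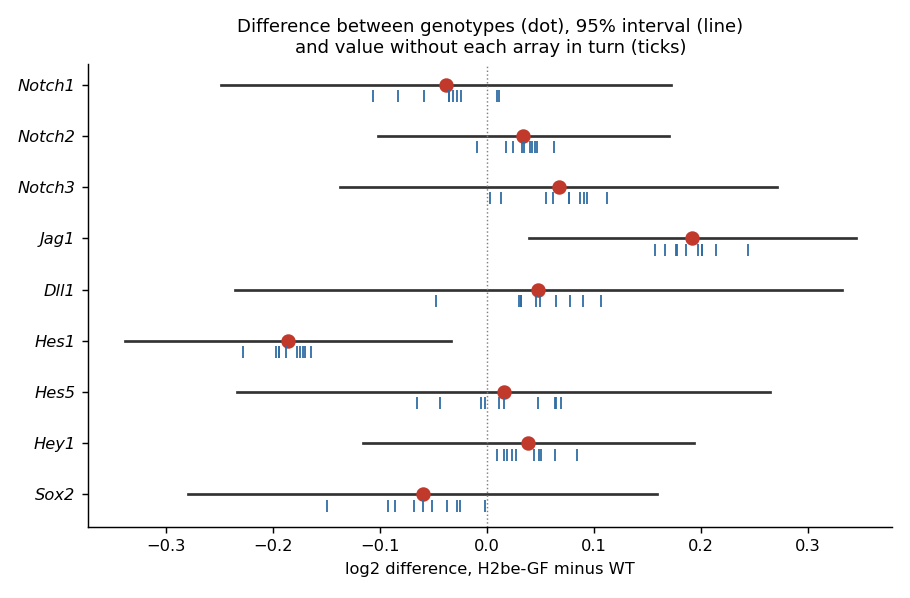
Difference in log2 signal, H2be-GF minus WT, of each of the 9 genes (red dots) with its 95% interval from limma (lines) and the same difference with each of the 10 arrays left out in turn (blue ticks). The intervals of Jag1 (0.04 to 0.34) and Hes1 (-0.34 to -0.03) are the 2 that do not include 0, before any adjustment over probe sets.

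The promoters of the pathway can be set beside these values, since RBPJ and the HES repressors read short DNA words. The 250 bases before the gene start were taken from RefSeq (GRCm38.p6), which matched 7 of the 9 genes with 8 windows, Dll1 having 2. The target genes Hes1 and Hey1 had no window and were not searched. The RBPJ word TGGGAA and the HES N box CACNAG were searched on both strands. Hes5 is shown because it was the one gene of the 7 with an RBPJ word, and Jag1 because it was the member with the smallest p. Capitals mark the RBPJ words, and the windows are chr4:154960673-154960922 on the plus strand for Hes5 and chr2:137116521-137116770 on the minus strand for Jag1.
Hes5: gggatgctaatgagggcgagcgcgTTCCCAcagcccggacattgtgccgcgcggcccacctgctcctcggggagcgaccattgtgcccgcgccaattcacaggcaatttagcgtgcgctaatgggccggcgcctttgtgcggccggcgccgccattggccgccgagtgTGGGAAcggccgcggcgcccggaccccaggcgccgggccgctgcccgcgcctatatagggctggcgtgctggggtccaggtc
Jag1: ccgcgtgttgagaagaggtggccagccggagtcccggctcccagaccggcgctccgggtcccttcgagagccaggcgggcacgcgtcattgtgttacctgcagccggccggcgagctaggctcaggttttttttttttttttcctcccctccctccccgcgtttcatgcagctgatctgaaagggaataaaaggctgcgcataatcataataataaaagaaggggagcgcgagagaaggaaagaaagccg
The Hes5 window holds TGGGAA on the forward strand 82 to 77 bases before the start and its reverse complement TTCCCA 226 to 221 bases before it. Of 32851 promoter windows of this length 21.6% held the word and 2.77% held it more than once. Hes5, with a pair of RBPJ words, had a difference of 0.02 between the genotypes. Neither word occurs in the Jag1 window, nor in those of Dll1 and Sox2, which says only that these letters are not there. The N box was found once in the Notch1 and Notch2 windows and at 2 places in the Notch3 window, against 36.7% of all windows with it and 8.18% with more than 1. These are matches of letters, not known binding sites.

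Beside the 9 genes, 57 others of the pathway lists were analysed. On the H2be-GF arrays 36 of the 57 were higher and 21 lower, with a median difference of 0.03 against 0.01 over all probe sets tested. No share of all probe sets on the higher side was computed to set beside this count. None of the 57 passed the test (limma adjusted p of 0.536 or above), none had genotypes that did not overlap, and 4 of them, 7.02%, stood at an unadjusted p under 0.05, close to the 8.43% of all probe sets. Of these 4, 2 were higher and 2 lower.

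Of the other receptors and ligands 4 of 6 were higher. Notch4, a receptor of endothelial cells, differed by 0.17 (SE 0.09, limma adjusted p = 0.672) and the ligand Jag2 by -0.09 (limma adjusted p = 0.764). Of the genes that process receptors and ligands 11 of 18 were higher and 7 lower. Neurl1a, a ubiquitin ligase that acts on ligands, was at 8.51 ± 0.04 (SD, n = 4) on H2be-GF and 8.71 ± 0.14 (SD, n = 6) on WT arrays, a difference of -0.20 (SE 0.08, limma adjusted p = 0.536). Pofut1, which adds fucose to receptors, differed by 0.14 (limma adjusted p = 0.675).

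In the nuclear complex and its corepressors 9 of 10 genes were higher on the H2be-GF arrays. They included the Groucho-type corepressors through which HES proteins act, although Tle2 was at only 0.001. Maml2 was at 0.009, and its other, dimmer probe set at -0.06. The share of all probe sets on the higher side was not computed. Tle3 was at 10.22 ± 0.21 (SD, n = 4) against 9.99 ± 0.11 (SD, n = 6), a difference of 0.23 (SE 0.10, limma adjusted p = 0.565). Tle4 was at 8.23 ± 0.16 (SD, n = 4) against 8.05 ± 0.07 (SD, n = 6), a difference of 0.18 (SE 0.08, limma adjusted p = 0.565). Rbpj itself, the DNA-binding partner of the cleaved receptor, differed by 0.07 (SE 0.08, limma adjusted p = 0.845).

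Negative regulators divided into 5 higher and 4 lower, with Dtx1, a Deltex ubiquitin ligase, at -0.13 (limma adjusted p = 0.652) and Fbxw7, a part of the ligase that removes the active receptor, at -0.10 (limma adjusted p = 0.770). Of the other HES and HEY genes 4 of 7 were higher. Hes6, which antagonises HES1 and is made in cells turning into neurons, was at 9.48 ± 0.05 (SD, n = 4) against 9.62 ± 0.07 (SD, n = 6), a difference of -0.14 (SE 0.06, limma adjusted p = 0.555). Heyl differed by 0.20 (SE 0.09, limma adjusted p = 0.611). Among SoxB and placode factors 3 of 7 were higher, with Sox14 at -0.13 (limma adjusted p = 0.791) and Sox21 at 0.07 (limma adjusted p = 0.861). Without H2be-GF 1 the count of the 57 genes at an unadjusted p under 0.05 was 0. It was 1 without WT 4, and 2 without WT 1, WT 5 or WT 6.

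**Figure D3:**
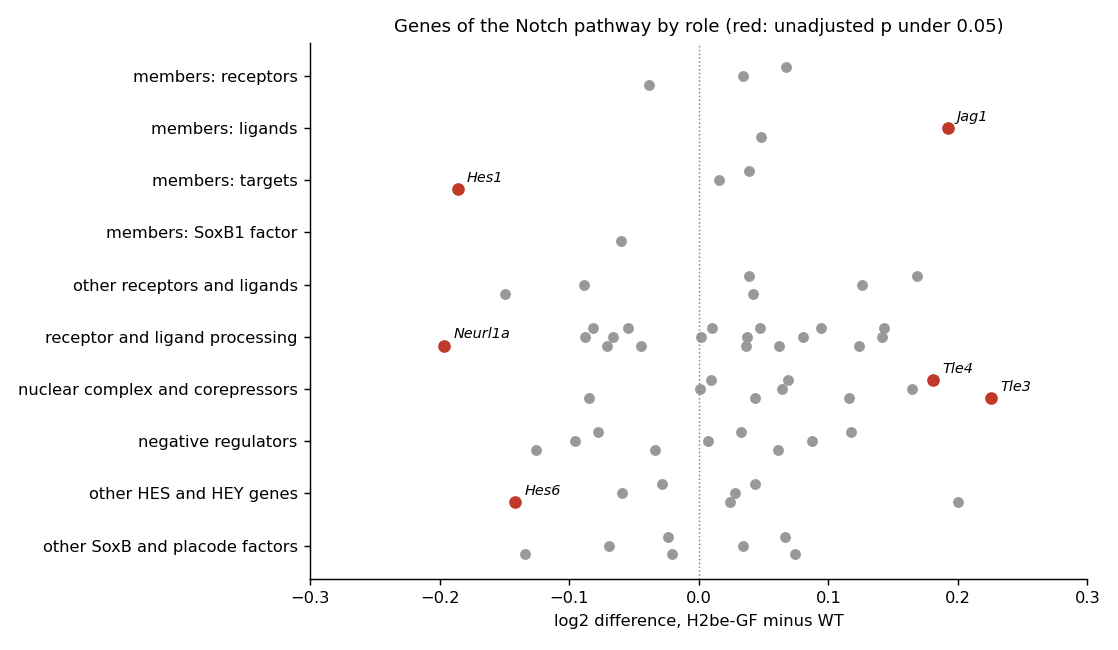
Difference in log2 signal, H2be-GF minus WT, of the 9 genes and of the 57 other pathway genes, 1 dot per gene in a row for its role, offset vertically only to keep dots apart. Red dots have an unadjusted limma p under 0.05, and none passed after adjustment. In the row of the nuclear complex 9 of 10 dots lie to the right of 0, those of Tle2 (0.001) and Maml2 (0.009) barely so.

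The HES and Notch genes are made by several cell types of the dissected tissue, so the marker lists of those types are given beside them. Of the 8 sustentacular cell markers 5 were higher and 3 lower, from -0.11 to 0.09, with 0 at an unadjusted p under 0.05. The log2 of their summed signal was 14.97 to 15.09 on H2be-GF and 14.98 to 15.04 on WT arrays. Of 9 globose basal and immature neuron markers 4 were higher and 5 lower, from -0.16 to 0.16 with a median of -0.002. Neurog1, a proneural factor, was 0.16 higher on H2be-GF arrays (SE 0.06, limma adjusted p = 0.505). A relation of its values to those of Hes1 was not tested.

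Markers of respiratory ciliated cells, which line the neighbouring airway epithelium, were lower on H2be-GF arrays in 6 of 6 cases, from -0.20 to -0.10 with a median of -0.16. Of these 4 had an unadjusted limma p under 0.05, where 4.07% of all probe sets did so on the lower side. They included Tekt1 at -0.19, Foxj1 at -0.16 and Rsph1 at -0.16 (limma adjusted p = 0.405, 0.522 and 0.544). None of the 6 passed the test. The log2 of their summed signal was 11.98 to 12.08 on H2be-GF and 12.14 to 12.30 on WT arrays, without overlap between the genotypes. No marker of the list was at 0. Taken singly, 1 of the 6 markers did not overlap, against 2.89% of all probe sets. Of 10 mature neuron markers 8 were lower, with a median of -0.10. Cnga4, a subunit of the olfactory transduction channel, was 1 of these 8, at -0.13 (SE 0.06, limma adjusted p = 0.587). The log2 of the summed signal of all 10, 15.26 to 15.32 on H2be-GF and 15.33 to 15.41 on WT arrays, did not overlap either. Taken singly, 3 of the 10 did not. No background share was computed for sums of lists. Centring each array on its ciliated cell markers adds 1 amount per array to every gene, so it moved the median difference of all probe sets from 0.01 to 0.16 along with Hes1, from -0.19 to -0.03, and Jag1, from 0.19 to 0.34. Centring on mature neuron markers moved that median to 0.07, Hes1 to -0.12 and Jag1 to 0.25 in the same way. With every gene moved by the same amount, the distance of Hes1 and Jag1 from that median could not change. The centring therefore cannot show whether their differences depend on these cells. Centring on sustentacular cell markers left Hes1 at -0.19 and Jag1 at 0.19. What part these cells have in the values of Hes1 and Jag1 was not tested.

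Jag1 and Notch receptors are also made in vessels and other stroma. Endothelial cell markers were higher in 6 of 8 cases, with a median of 0.03. The log2 of their summed signal was 11.04 to 11.20 on H2be-GF and 10.99 to 11.23 on WT arrays. The mural cell sum, 13.22 to 13.33 against 13.18 to 13.32, overlapped as well. Of 5 myeloid cell markers 3 were higher and 2 lower, from -0.08 to 0.27 with a median of 0.02. Ptprc, the pan-leukocyte surface phosphatase, was 0.27 higher on H2be-GF arrays (SE 0.11, limma adjusted p = 0.537). The log2 of the summed signal of the 5 did not follow it. This sum was 11.65 to 11.75 on WT arrays. H2be-GF 1 (11.58) and H2be-GF 2 (11.63) lay below that range, H2be-GF 3 (11.65) within it and H2be-GF 4 (11.90) above it. Horizontal basal cell markers gave 2 higher and 3 lower of 5, Bowman's gland markers 1 and 4 of 5, and glia markers 2 and 2 of 4, with 0 at an unadjusted p under 0.05 in any of these 3 lists.

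**Figure D4:**
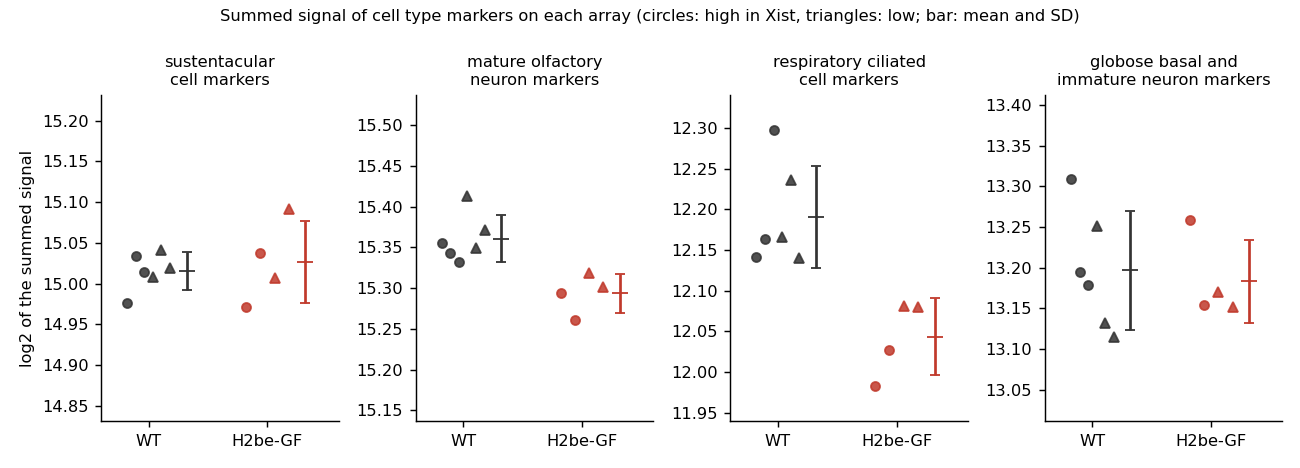
Log2 of the summed signal of 4 lists of cell type markers on each array, with WT in grey, H2be-GF in red, circles for arrays high in Xist, triangles for arrays low in Xist, and bars for the mean and SD. Each panel spans 0.40 log2 units. The sums of mature neuron and of respiratory ciliated cell markers do not overlap between the genotypes, whereas those of sustentacular cell markers and of basal and immature neuron markers do.

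Within the 2 sets of arrays that Xist separates, Jag1 kept its direction, with a difference of 0.28 in the high set and 0.10 in the low set. Hes1 did likewise, at -0.24 and -0.13. Notch1 (0.04 and -0.12), Notch2 (0.10 and -0.03), Notch3 (0.16 and -0.02), Dll1 (-0.04 and 0.14), Hes5 (0.06 and -0.03), Hey1 (0.12 and -0.04) and Sox2 (0.05 and -0.17) had opposite signs in the high and the low set. No test showed a difference between the sets, since the smallest interaction p of the 9 genes was 0.225 unadjusted and 1.00 adjusted in limma. Over all probe sets 0 interactions passed adjustment and 678 had an unadjusted p under 0.05.

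Pairs of the 9 genes were also compared across arrays. After subtraction of the genotype means, 36 pairs were correlated over the 10 arrays with permutation tests within genotype, and none passed Benjamini-Hochberg adjustment. By Pearson's r the strongest was Notch1 with Notch2, at 0.75 (permutation p = 0.0204, adjusted 0.473) and a Spearman rho of 0.61 (permutation p = 0.0769, adjusted 0.789), with r = 0.68 without the 2 arrays farthest from the median of Notch1, 0.89 in the high set of arrays and 0.44 in the low set. Notch1 and Sox2 ran in opposite directions, at r = -0.71 (permutation p = 0.0366, adjusted 0.473) and rho = -0.71 (permutation p = 0.0322, adjusted 0.579), with r = -0.62 without the 2 farthest arrays. Hes5 and Hey1, the strongest pair by Spearman's rho, had r = 0.71 (permutation p = 0.0394, adjusted 0.473) and rho = 0.82 (permutation p = 0.0104, adjusted 0.375), with r = 0.53 without the 2 farthest arrays. Jag1 and Hes1 gave r = 0.40 (permutation p = 0.207, adjusted 0.712) and rho = 0.26, with -0.44 in the high set and 0.45 in the low set.

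As a description, the gene whose array-to-array pattern was most like that of each member was sought among 21587 probe sets, again over the 10 arrays and after subtraction of the genotype means. It was Ube2b for Sox2 (r = 0.99), Leprot for Hey1 (r = 0.97), C230030N03Rik for Notch3 (r = 0.96) and Cadm1 for Notch1 (r = 0.95). For Dll1 it was C1qtnf1, for Hes5 Olfr663, for Jag1 Zfp281 and for Hes1 Mrpl35, all at r = 0.95, and for Notch2 Dscc1 at r = 0.92. The genes of an array share its RNA pool and all arrays were normalized together, and no p is given, since each gene was the best match among all probe sets compared.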

How the data were processed

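The authors screened the scans for outlying arrays (arrayQualityMetrics), computed IterPLIER summaries with sketch-quantile scaling (Affymetrix Expression Console), and deposited the log2 signal of 35556 probe sets. For these tools the version, and for the annotation the build, is not given in the sources used here. IterPLIER sets dim probe sets near or at 0 (95 to 157 values per array), and quantile normalization hides a change shared by most genes. Levels of different probe sets were not compared.

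Gene names came from the platform annotation, updated by Entrez ID to RefSeq (GRCm38.p6), for the 21789 probe sets with 1 symbol. The genotypes were compared by limma 3.58.1 under R 4.3.3 (no covariate, two-sided) over 23194 probe sets with a symbol and a mean above 5, with Benjamini-Hochberg adjustment at 0.05. Exact permutation tests used 210 splits, and the interaction with the Xist set was a limma term. For a gene with several probe sets the brightest was counted. Some listed genes are not reported here. Named were all 9 genes, pathway genes at an unadjusted p under 0.05 or up to 2 of smallest p per list, up to 3 markers per list at an unadjusted p under 0.05, and Omp. H2bc21, Rbpj, Tle2 and Maml2 were named after their values were seen. The members and lists were chosen with earlier results of these data known. The labels mark arrays of a genotype as replicates, so p-values measure the spread between RNA pools, and the number of arrays limits the precision. The procedure was tested on simulated data. Alternatives covered normalization, a constant of 16 before log2, variance model, array weights, replicate block, Xist set, filters and each array left out in turn. Centring on the means of 3 marker lists was chosen after seeing the data. Plots were drawn with matplotlib 3.10.9.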

Additional observations from a re-analysis of the deposited data

How the results depend on the processing

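Of the 9 genes, 0 passed adjustment under any of the 24 alternatives. Jag1 stayed higher in all of them (0.10 to 0.34) and Hes1 lower (-0.24 to -0.03), while their unadjusted p under 0.05 held in 20 and 18. These 24 include the centrings on marker lists, which move all genes of an array alike and cannot test Jag1 or Hes1. Every centring counts among the 20 of Jag1, and only that on sustentacular cell markers among the 18 of Hes1. The ends 0.34 and -0.03 come from centring on ciliated cell markers. Without the centrings these ends were 0.28 for Jag1 (high Xist set alone) and -0.13 for Hes1 (low set alone). The 20 probe sets called of all became 114 with a trended robust variance, 36 at a mean above 7, 5 with the replicate block, 0 in either Xist set alone (where 1113 and 1012 had an unadjusted limma p under 0.05), and 11 to 19 without each array. The 2 of the 9 genes at an unadjusted p under 0.05 became 0 with the replicate block, 1 in the high and 0 in the low set alone, and 1 to 2 without each array. The 4 other pathway genes became 1 with the replicate block, 2 and 1 in the high and low sets, and 0 to 5 without each array.

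Genes near 0 changed sign. In the high set alone Notch1 was 0.044, Dll1 -0.039 and Sox2 0.050, and in the low set Notch2 was -0.032, Notch3 -0.022, Hes5 -0.031 and Hey1 -0.041. Hes5 was -0.0044 after a second quantile normalization and -0.0057 with array weights. Without each array Notch1 ran from -0.11 to 0.011, Notch2 from -0.0093 to 0.063, Dll1 from -0.047 to 0.11 and Hes5 from -0.065 to 0.069. For these alternatives the cause was not tested. Centring on mature neuron or ciliated cell markers raised all genes alike. Notch1 came to 0.024 and Sox2 to 0.0019 relative to mature neuron markers, and to 0.11 and 0.092 relative to ciliated cell markers. Centring on sustentacular cell markers lowered all genes slightly, Notch1 to -0.042 and Sox2 to -0.064.

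Deviations of same-numbered arrays correlated at 0.53, 0.22, -0.42 and 0.26. Arrays of different numbers were not correlated in this way, so the 4 values have no reference and cannot decide whether the numbers pair the samples. The negative value is that of number 3, where H2be-GF 3 is low and WT 3 high in Xist. In the other pairs both arrays are in the same Xist set. No label ties the numbers to a shared litter or day, and the samples were not treated as paired. The replicate block leaves fewer degrees of freedom. It also gives WT 5 and WT 6, which have no H2be-GF array of their number, levels of their own. These 2 arrays therefore do not enter its difference. With this block Dll1 was -0.091 and Hes5 -0.064, and without WT 6 alone they were -0.047 and -0.044. Jag1 was 0.21 with the block, with a limma p of 0.0680 unadjusted and 0.626 adjusted. Hes1 was -0.19, with a limma p of 0.0750 unadjusted and 0.632 adjusted. The gene with the lowest single value of the 9, Dll1 at 6.51, also had the widest interval.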
